A study of Mus musculus with 8 samples.

Results

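Iron storage, iron transport and heme breakdown were examined through 10 genes chosen by name, out of 56832 rows in the table of normalized counts. They were Fth1, Ftl1 and Ncoa4 for storage, Tfrc, Slc11a2 and Slc11a1 for uptake, Slc40a1 for export, Hmox1 for heme breakdown, and Ireb2 and Aco1 for iron sensing. Each of the 10 passed the filter on low values, a mean of at least 10 normalized counts over the 8 libraries, which 14428 genes passed. The cells were microglia sorted from the brains of young adult male 5xFAD mice, a line in which neurons make mutant human amyloid precursor protein and presenilin 1, driven by the Thy1 promoter, and amyloid plaques form. The saline group and the ethanol group each had 4 libraries. All mice carried the transgenes, so neither group shows microglia without amyloid disease. Ethanol mice were given 3 g/kg of a 20% solution by intraperitoneal injection, 5 days a week for 4 weeks, and saline mice were injected on the same schedule. Both had 2 weeks of withdrawal. The labels used here give neither the age in weeks nor whether a library came from 1 mouse, so p-values measure the spread between these libraries, which may be partly technical.

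Microglia take up iron bound to transferrin through the transferrin receptor, store it in ferritin shells of heavy and light chains, and release it through ferroportin. Iron from red cell debris enters as heme, which heme oxygenase opens to free iron, carbon monoxide and biliverdin. When cytosolic iron is low, the iron regulatory proteins bind hairpins called iron-responsive elements, which blocks translation of ferritin and ferroportin messages and protects the transferrin receptor message from decay. Much of this control therefore acts on translation and is not visible in counts of messenger RNA. Iron-loaded, ferritin-rich microglia are a known feature of tissue around amyloid plaques.

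The hairpins of 4 of the 10 messages are shown because they are the letters that the proteins encoded by Ireb2 and Aco1 are known to bind. Protein-coding transcripts of GENCODE M21, built on GRCm38, were searched on the sense strand for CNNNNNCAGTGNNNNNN, where the 5 bases before the 6-base loop CAGTGN had to pair with the 5 bases after it, G with T allowed. In the sequences below, capitals mark the loop and 6 further bases are given on each side of the 17-base pattern.
Fth1-201, 5′ UTR, loop at bases 99 to 104: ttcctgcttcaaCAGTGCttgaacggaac
Ftl1-201, 5′ UTR, loop at bases 90 to 95: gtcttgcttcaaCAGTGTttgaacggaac
Slc40a1-201, 5′ UTR, loop at bases 102 to 107: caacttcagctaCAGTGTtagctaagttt
Tfrc-201, 3′ UTR, loop at bases 3327 to 3332: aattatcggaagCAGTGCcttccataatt
Tfrc-201, 3′ UTR, loop at bases 3706 to 3711: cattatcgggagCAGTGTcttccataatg
Tfrc-201, 3′ UTR, loop at bases 3771 to 3776: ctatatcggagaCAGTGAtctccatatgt
Tfrc-201, 3′ UTR, loop at bases 3818 to 3823: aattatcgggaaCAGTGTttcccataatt
Bases are counted from the transcript's first base. The pattern was found in 294 of 21877 genes with a protein-coding transcript (1.34%), in a 5′ UTR of 31 genes (0.142%) and in a 3′ UTR of 129 genes (0.590%). The 2 ferritin hairpins were identical at 26 of 29 bases. Tfrc-201 held 4 matches, and the other 6 genes held none in this search, which says only that these letters and pairs are not there.

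None of the 10 genes differed between ethanol and saline microglia past the threshold. In limma, 0 of 10 had a Benjamini-Hochberg adjusted p under 0.05, where 0% of all 14428 tested genes did, and the adjusted p was 0.997 for each of the 10. At an unadjusted p under 0.05 the count was again 0 of 10, against 3.63% of all tested genes, 1.7% higher and 1.93% lower in ethanol. Fits to recovered reads also gave 0 of 10 at either threshold, where the unadjusted threshold was passed by 3.43% of genes in edgeR, 2.9% in DESeq2 and 3.78% in voom. Ethanol and saline libraries overlapped for all 10 genes, while the groups did not overlap for 2.32% of tested genes, with 1.12% higher and 1.2% lower in ethanol. The log2 fold changes were positive for 5 genes and negative for 5, with a median of 0.0066, beside a median of -0.0054 over all tested genes. The 95% interval excluded a 1.5-fold difference in either direction for 9 of the 10 genes, all but Tfrc, and a 2-fold difference for all 10. Over all tested genes 56.3% and 73.2% had intervals that tight.

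**Figure D1:**
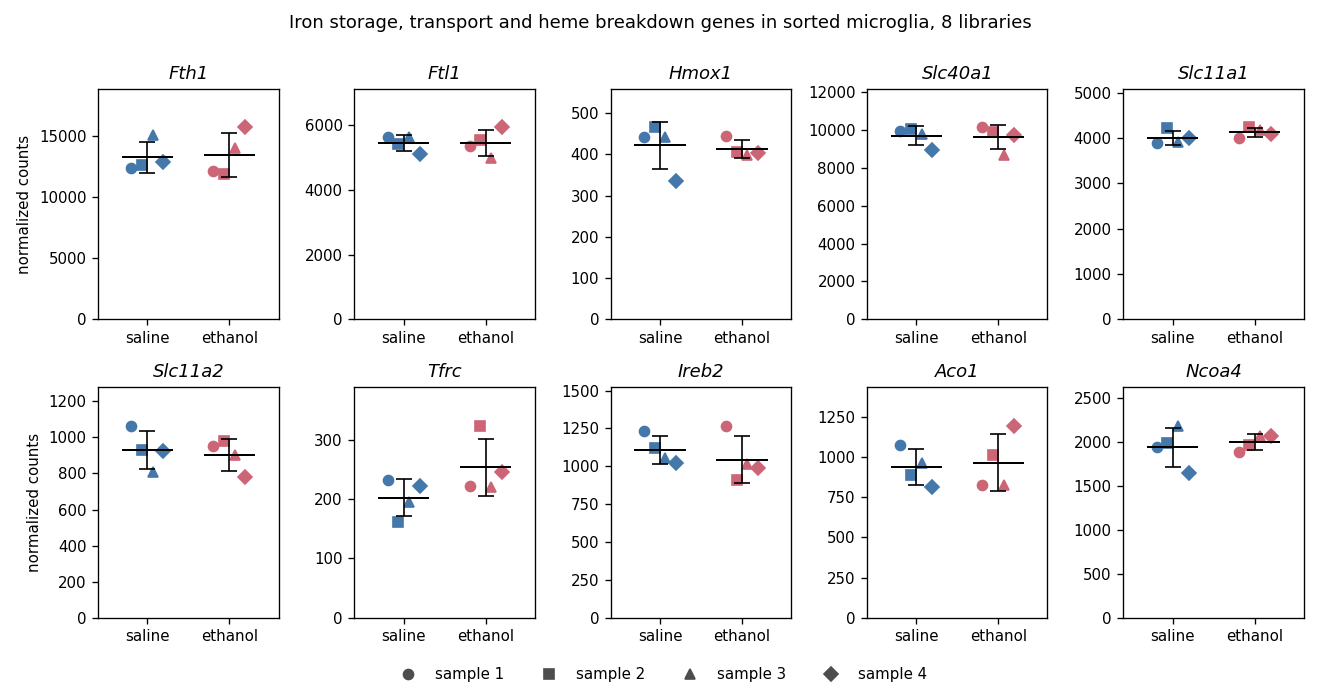
Normalized counts of the 10 genes in each library (vertical axes from 0), saline in blue and ethanol in red, marker shapes for the sample number, bars for the mean and SD of 4 libraries. The groups overlap in every panel, Tfrc has the widest relative spread with 161 in saline 2 and 324 in ethanol 2, and Slc11a1 has the narrowest.

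Fth1, the heavy ferritin chain, whose ferroxidase site oxidizes iron for storage, was the most abundant of the 10 in normalized counts and ranked 110 among tested genes. Its normalized counts were 12365, 12600, 15092 and 12861 in saline 1 to 4 and 12152, 11849, 13992 and 15709 in ethanol 1 to 4. Saline 3, ethanol 3 and ethanol 4 were the 3 highest libraries, and the groups overlapped. Saline averaged 13229 ± 1258 and ethanol 13426 ± 1793 (SD, n = 4 each). The fold was 1.01 with a 95% interval of 0.890 to 1.15.

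Ftl1, the light ferritin chain, which helps the mineral core form, had normalized counts of 5638, 5431, 5630 and 5121 in saline 1 to 4. The ethanol libraries had 5355, 5539, 4969 and 5937. The lowest and the highest value were both in ethanol libraries. The means of 5455 ± 243 and 5450 ± 402 (SD, n = 4 each) gave a fold of 0.998 (0.899 to 1.11). Reads from ferritin pseudogenes can be split from the parent genes in counting. Rows for 3 Ftl1-related copies summed to 0.764% to 2.90% of the Ftl1 value, with the top share in ethanol 1, and 3 Fth1-related copies to at most 0.143% of the Fth1 value. Only rows whose names mark them as ferritin copies were summed, so any copies under other names are not in these shares.

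Ncoa4, the cargo receptor that carries ferritin to lysosomes and so frees its iron, had normalized counts of 1948, 1987, 2189 and 1647 in saline and 1892, 1969, 2068 and 2075 in ethanol libraries 1 to 4. Both the lowest and the highest value were in saline libraries. The SD was 224 in saline and 87.2 in ethanol, around means of 1943 and 2001 (n = 4 each). The fold was 1.03 (0.903 to 1.18).

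Tfrc, the transferrin receptor, was the least abundant of the 10 and had the largest fold. Its normalized counts were 232, 161, 195 and 222 in saline 1 to 4 and 223, 324, 221 and 246 in ethanol 1 to 4. Ethanol 2 and ethanol 4 lay above each saline library, saline 2 and saline 3 lay below each ethanol library, and the other 4 libraries lay between 221 and 232. The means were 202 ± 31.7 and 253 ± 48.4 (SD, n = 4 each). The fold was 1.25 (0.948 to 1.64), with an unadjusted limma p of 0.107 and an adjusted p of 0.997. The log2 fold change was 0.32, against 0.19 without ethanol 2 and 0.21 without saline 2. Tfrc was covered by 167 to 323 reads per library, for which read counting alone gives a coefficient of variation of 6.59%. The observed values were 15.7% in saline and 19.1% in ethanol.

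Slc11a2, or DMT1, exports iron from endosomes to the cytosol. It had normalized counts of 1065, 931, 808 and 923 in saline and 952, 982, 901 and 780 in ethanol libraries 1 to 4. Saline 1 was the highest and ethanol 4 the lowest. The means were 932 ± 105 and 904 ± 89.1 (SD, n = 4 each), a fold of 0.971 (0.822 to 1.15). The gene makes messages with and without an iron-responsive element, and a value per gene does not separate them.

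Slc11a1, or NRAMP1, which moves iron and manganese out of the phagosomes of macrophages, had the smallest spread of the 10. Its normalized counts were 3882, 4229, 3919 and 4012 in saline and 4011, 4243, 4174 and 4085 in ethanol libraries 1 to 4. The highest library was 1.09 times the lowest. The fold was 1.03 (0.934 to 1.13), around means of 4010 ± 156 and 4128 ± 101 (SD, n = 4 each). Slc11a1 is also a gene of neutrophils and monocytes. All 10 neutrophil markers and all 10 monocyte markers were detected, with 0 at zero in every library. The summed neutrophil markers held 0.0177% to 0.0962% of normalized counts in saline and 0.0166% to 0.0696% in ethanol libraries, and the monocyte markers 0.00326% to 0.0102% and 0.00318% to 0.0091%. Slc11a1 was lowest in saline 1, the library with the most of either marker list. There the monocyte list was led by Chil3 at 865, Cd177 at 232 and Hp at 221 normalized counts. Of the same list, Ly6c2 was highest in saline 3 and Ccr2 in ethanol 3. The part of neutrophils and monocytes in the Slc11a1 values was not tested. In a bulk sample, fewer cells of a type and less RNA per cell cannot be told apart.

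Slc40a1, or ferroportin, is the one known iron exporter of mammalian cells. In normalized counts, not corrected for transcript length, it was the next highest of the 10 after Fth1. It had normalized counts of 9962, 10059, 9761 and 8955 in saline and 10146, 9878, 8690 and 9741 in ethanol libraries 1 to 4. Saline 4 and ethanol 3 were the 2 lowest. The means were 9684 ± 502 and 9614 ± 638 (SD, n = 4 each). On the log2 scale the 95% interval was -0.15 to 0.13, around a fold of 0.992.

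Hmox1, the inducible heme oxygenase, had normalized counts of 443, 466, 441 and 336 in saline and 444, 406, 399 and 403 in ethanol libraries 1 to 4. Saline 4 was the lowest by a wide gap, and 3 ethanol libraries lay within 399 to 406. The means were 422 ± 58.1 and 413 ± 20.9 (SD, n = 4 each), and the fold was 0.987 (0.805 to 1.21). Macrophages at the borders of the brain also express Hmox1. All 10 of their markers were detected, 9 with a mean of at least 10, and summed to 0.00357% to 0.0175% of normalized counts in saline and 0.00551% to 0.00908% in ethanol libraries. Saline 2 had the highest and saline 4 the lowest value both of Hmox1 and of this sum. The ethanol libraries did not follow this order, as ethanol 1 had their highest Hmox1 value and their lowest sum, 0.00551%. The part of these cells in the Hmox1 values was not tested.

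Of the sensors, Ireb2 encodes iron regulatory protein 2, which is destroyed when iron is plentiful, and Aco1 encodes iron regulatory protein 1, which becomes a cytosolic aconitase when it holds an iron-sulfur cluster. Ireb2 had normalized counts of 1234, 1121, 1054 and 1023 in saline and 1269, 907, 1013 and 989 in ethanol libraries 1 to 4. Ethanol 2, 3 and 4 were the 3 lowest, but ethanol 1 was the highest of all. Its means were 1108 ± 93.7 and 1044 ± 156 (SD, n = 4 each), a fold of 0.938 (0.794 to 1.11). Its log2 fold change of -0.093 was -0.19 without ethanol 1, -0.029 without ethanol 2 and -0.040 without saline 1, and it passed in none of these fits. Aco1 had normalized counts of 1075, 890, 961 and 812 in saline and 827, 1013, 823 and 1195 in ethanol libraries 1 to 4. Ethanol 4 and saline 1 were the highest and saline 4 the lowest. Its means were 935 ± 112 and 964 ± 177 (SD, n = 4 each), a fold of 1.02 (0.845 to 1.24).

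**Figure D2:**
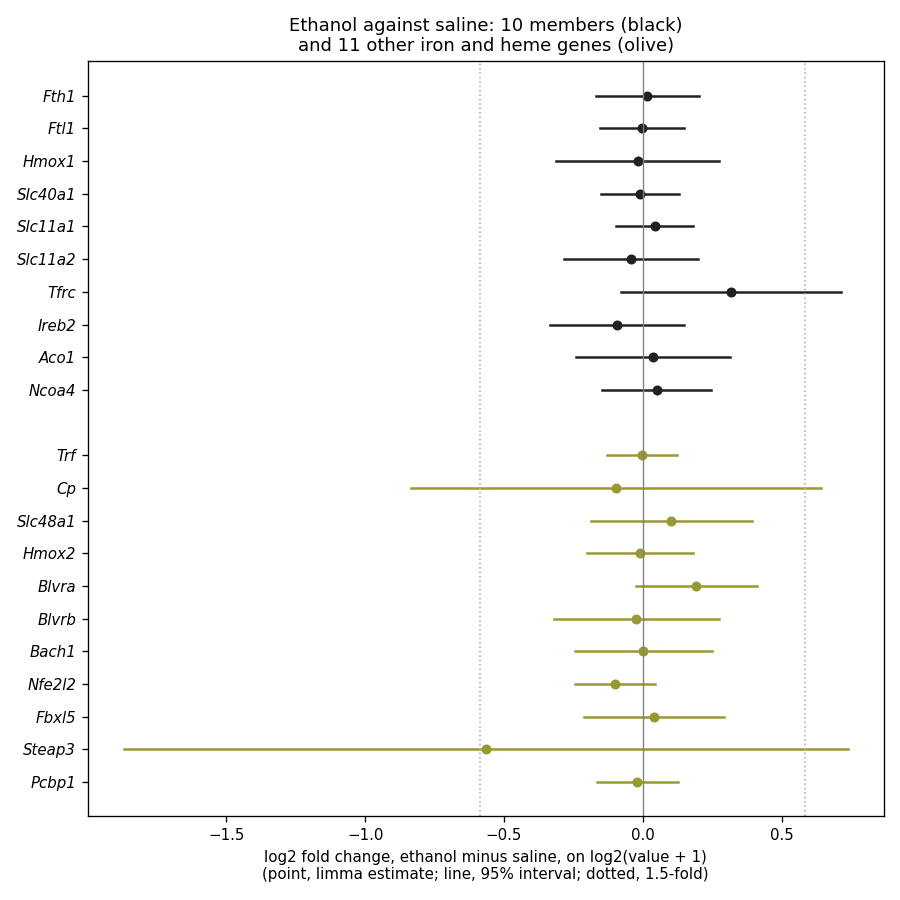
Log2 fold change of ethanol minus saline on the log2(value + 1) scale (horizontal axis) for the 10 genes in black and 11 other iron and heme genes in olive, with limma 95% intervals over 4 libraries a group and dotted lines at 1.5-fold. Of the 10 genes, only the Tfrc interval, up to a fold of 1.64, crosses a dotted line.

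The abundant genes varied between libraries by more than read counting alone gives. Fth1 was covered by 11186 to 15267 reads per library, a counting coefficient of variation of 0.862%, while the observed values were 9.51% in saline and 13.4% in ethanol. For Slc11a1 counting gives 1.56%, and 3.88% and 2.46% were observed. For Hmox1, with fewer reads, counting gives 4.87%, close to the 5.07% observed in ethanol and below the 13.8% in saline. The libraries carry no molecular identifiers and were amplified from 500 pg of RNA, so reads are not independent molecules and these limits cover counting error only. The within-group SD on the log2(value + 1) scale was 0.05 for Slc11a1, 0.09 for Ftl1 and for Slc40a1, 0.16 for Fth1 and for Hmox1, and 0.25 for Tfrc. Its median was 0.25 over all tested genes and 0.13 over those with a mean of at least 1000.

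Levels of different genes can be compared only per transcript length. Divided by the longest protein-coding transcript in GENCODE M21, Fth1 led with a mean of 8921 normalized counts per kilobase over the 8 libraries, followed by Ftl1 at 5633, Slc40a1 at 2863, Slc11a1 at 1758 and Ncoa4 at 485. The ranges of these 5 did not overlap. Hmox1 at 266, Aco1 at 248, Slc11a2 at 208 and Ireb2 at 187 had overlapping ranges from each to the next, and Tfrc was last at 46.6, with a highest library of 66.2. Divided by the median transcript length instead, which was 429.5 bases for Slc40a1 beside a longest of 3370, the values were 22513 for Fth1, 22466 for Slc40a1 and 7413 for Ftl1. Under both lengths Fth1 had the highest mean and Tfrc the lowest, but by the median length the ranges of Fth1 and Slc40a1 overlapped.

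**Figure D3:**
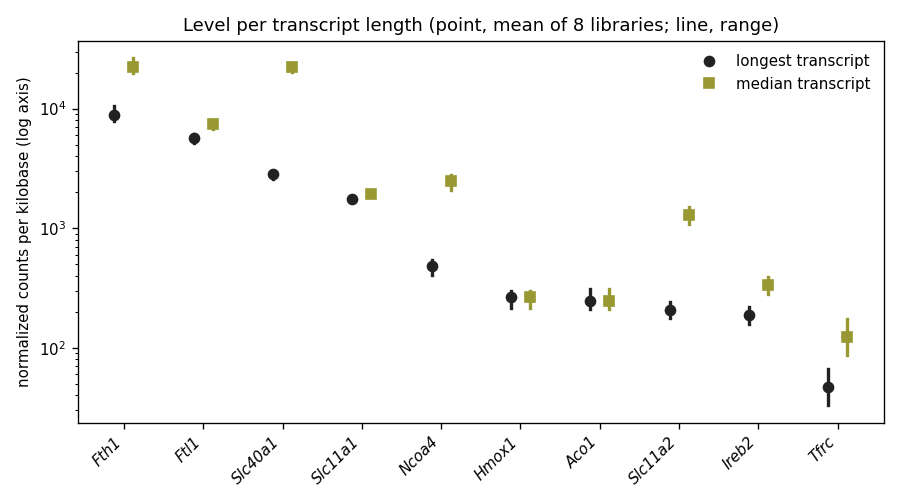
Normalized counts per kilobase of transcript (log axis) for the 10 genes, with points for the mean and lines for the range of 8 libraries. Black uses the longest and olive the median protein-coding transcript, and Fth1 is first and Tfrc last with either.

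Ratios within a library show the balance between members with paired roles, and as scores over chosen genes they were not tested. The log2 ratio of Fth1 to Ftl1, heavy to light ferritin, was 1.13, 1.21, 1.42 and 1.33 in saline 1 to 4 and 1.18, 1.097, 1.49 and 1.40 in ethanol 1 to 4. It differed by 0.02 between the group means, and the values of the 4 libraries numbered 3 or 4 all lay above those of the 4 numbered 1 or 2. The log2 ratio of Tfrc to Slc40a1, import to export, was -5.42, -5.96, -5.64 and -5.33 in saline and -5.50, -4.93, -5.29 and -5.30 in ethanol. Its group means differed by 0.33, and the groups overlapped. The log2 ratio of Ireb2 to Aco1 spanned 0.13 to 0.33 in saline and -0.27 to 0.62 in ethanol, and the groups overlapped. Ethanol 1 lay above the saline range, ethanol 2 and ethanol 4 lay below it, and ethanol 3 lay inside it. The log2 ratio of Slc11a1 to Slc11a2 spanned 1.86 to 2.28 and 2.07 to 2.39.

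**Figure D4:**
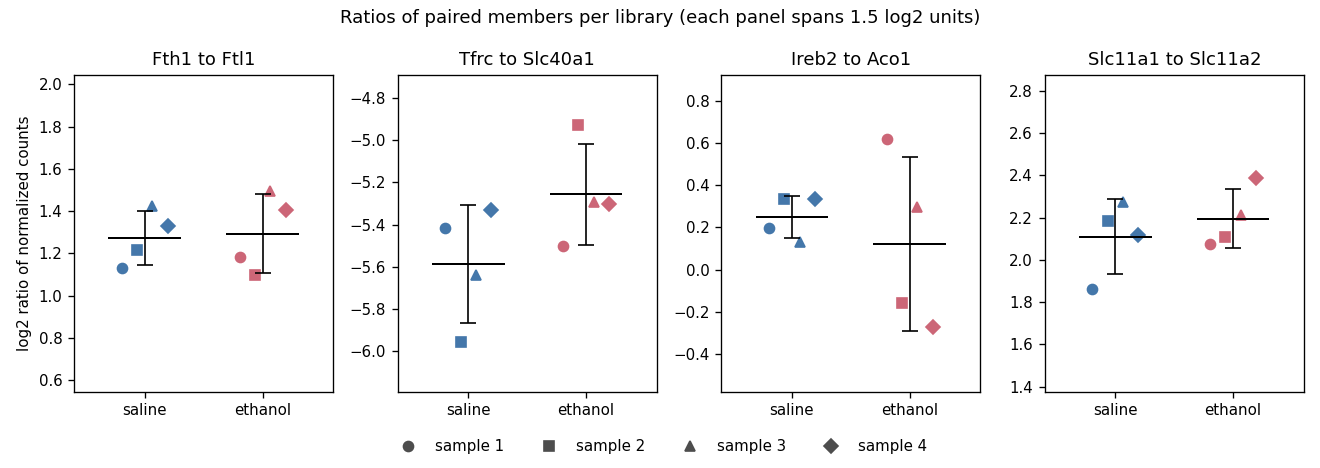
Log2 ratio of normalized counts for 4 gene pairs in each library, saline in blue and ethanol in red, with marker shapes for the sample number and bars for the mean and SD of 4 libraries. Each vertical axis spans 1.5 log2 units, and the groups overlap for every pair.

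Samples 1 and 2 differed from samples 3 and 4 along the first principal component of these data, which held 20.1% of the variance. All 4 libraries of the first set lay on its negative side and all 4 of the second set on its positive side. The second set was not a tight cluster. Saline 4, at 4.58, lay nearer to ethanol 2, at -13.9, than to ethanol 4, at 60.7. On the second component, with 16.9% of the variance, saline 4 at -53.1 and ethanol 4 at 30.9 were the opposite ends. The labels name no batch, and the sets were recognized from the values of all genes, so what follows is description. The sets partly follow the number in the library names, with all 3 libraries numbered 165 in samples 1 and 2, both numbered 163 in samples 3 and 4, and those numbered 164 in either set. Fth1 had a mean of 12241 normalized counts in samples 1 and 2 and 14413 in samples 3 and 4, with ranges of 11849 to 12600 and 12861 to 15709 that did not overlap. Slc40a1 went the other way, with 10012 and 9287, and so did Slc11a2, with 983 and 853, both again without overlap. These were 3 of the 10 genes, where the sets did not overlap for 8.03% of all tested genes, 4.54% with samples 3 and 4 higher and 3.49% with them lower. Ftl1, with 5491 and 5414, did not share the difference of Fth1.

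Within the sets, ethanol minus saline had the same sign in both for 4 genes, Slc11a1, Slc11a2, Tfrc and Ireb2, and opposite signs for the other 6. For Tfrc the log2 difference was 0.47 in samples 1 and 2 and 0.16 in samples 3 and 4. For Fth1 it was -0.06 and 0.09, for Hmox1 -0.10 and 0.06, for Aco1 -0.10 and 0.17 and for Ncoa4 -0.03 and 0.13. Each set holds 2 libraries a group, and the difference between sets was not tested.

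**Figure D5:**
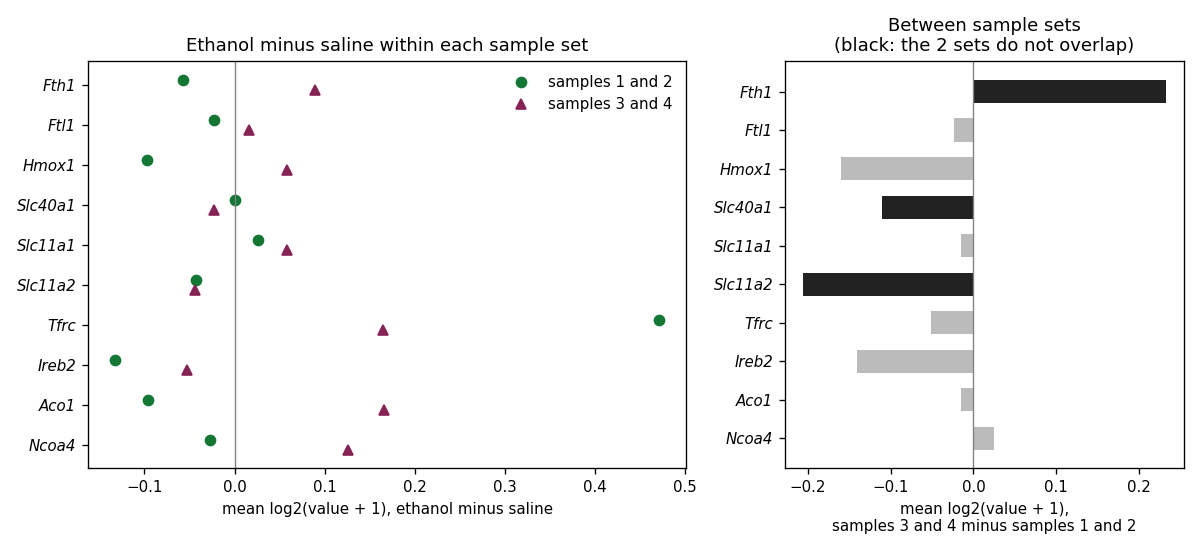
Left, mean log2(value + 1) of ethanol minus saline within samples 1 and 2 (green circles) and within samples 3 and 4 (purple triangles) for the 10 genes. Right, samples 3 and 4 minus samples 1 and 2, with black bars for Fth1, Slc40a1 and Slc11a2, whose sets do not overlap.

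The wider pathway was read from 7 lists, with Tfrc left out of the one that held it so that none of the 10 was counted again. Together they held 115 genes, of which 89 were tested and 0 were called by limma. At an unadjusted p under 0.05 there were 2 higher and 1 lower in ethanol, 3 of 89 beside 3.63% of all tested genes. Fold changes were positive for 46 and negative for 43, with a median log2 fold change of 0.0015. By list, 0 genes were called of 15 tested for iron uptake and trafficking, 3 for export and the hepcidin axis, 9 for ferritin and iron sensing, 18 for heme handling, 12 for heme synthesis, 24 for iron-sulfur clusters and 8 for ferroptosis control. List medians ran from -0.04 for export to 0.05 for ferroptosis control. Of the 26 genes below the filter, 9 had 0 reads in every library, among them Ftmt, mitochondrial ferritin.

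Trf, which encodes transferrin, had a mean of 31591 normalized counts in saline and 31496 in ethanol, a fold of 0.998 (0.915 to 1.09), and ranked 38 among tested genes. Oligodendrocytes are a known source of brain transferrin. The 10 markers of the oligodendrocyte lineage together held 0.0185% to 0.0213% of normalized counts over the 8 libraries, and 5 of the 10 had a mean of at least 10. Cnp, the highest of them by mean, had 1320 to 1502 normalized counts, Mbp 802 to 1207 and Mag 402 to 588. The means of the low markers were 3.35 for Mog, 8.55 for Olig1, 2.83 for Olig2 and 6.23 for Pdgfra, and Cldn11 was 0 in each library. The part of those cells in the Trf value was not tested. Cp, the ferroxidase ceruloplasmin, had 89.3 and 76.1, a fold of 0.935 (0.561 to 1.56).

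Among the genes of heme handling, Hmox2, the constitutive heme oxygenase, had means of 1950 in saline and 1938 in ethanol. Its values were above those of Hmox1 in each library, a comparison not corrected for length. The fold was 0.993 (0.870 to 1.13). Blvra, biliverdin reductase A, had a fold of 1.14 (0.982 to 1.33) and Blvrb a fold of 0.984 (0.801 to 1.21). Slc48a1, which carries heme out of lysosomes, had a fold of 1.07 (0.878 to 1.31). Bach1, the heme-sensing repressor of Hmox1, had a fold of 1.00 (0.843 to 1.19), and Nfe2l2, which encodes the activator NRF2, a fold of 0.933 (0.844 to 1.03).

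Fbxl5, the iron-sensing ubiquitin ligase subunit that removes iron regulatory protein 2, had a fold of 1.03 (0.863 to 1.23). Pcbp1, an iron chaperone for ferritin, had a fold of 0.986 (0.892 to 1.09). Steap3, an endosomal ferrireductase, was low at 24.3 and 15.6 normalized counts, and its fold of 0.676 had an interval of 0.274 to 1.67, and a 2-fold lower level lay inside it.

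Among the other pathway genes with the smallest unadjusted p were Pgrmc1 on the higher side and Ciao1 and Nubpl on the lower. Ciao1, of the cytosolic iron-sulfur assembly complex, had normalized counts of 564, 562, 540 and 528 in saline and 403, 439, 406 and 487 in ethanol libraries 1 to 4. All ethanol libraries lay below all saline libraries. The fold was 0.789 (0.661 to 0.942), and the limma adjusted p of 0.997 did not pass. Pgrmc1, a heme-binding membrane protein, had a fold of 1.21 (1.03 to 1.42). Nubpl, an assembly factor of respiratory complex I, had a fold of 0.790 (0.604 to 1.03). Neither of these passed (limma adjusted p = 0.997 in each case). Besides Ciao1, the groups did not overlap for Fdx1, a mitochondrial ferredoxin chosen after its values were seen, which had 170 to 209 normalized counts in saline and 212 to 252 in ethanol and did not pass in limma. These 2 of 89 tested genes compare with 2.32% of all tested genes.

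Markers of the labelled cell type were abundant. All 10 homeostatic microglial markers were detected, and together they held 4.77% to 5.05% of normalized counts in saline and 5.02% to 5.23% in ethanol libraries. Assigned reads ran from 14271351 to 17231301 per library. Erythrocyte, choroid plexus and lymphocyte markers had no gene with a mean of at least 10, and erythrocyte markers held at most 0.000617% of any library. All 10 astrocyte markers had a mean of at least 10, and they held 0.0432% to 0.0625% of normalized counts over the libraries. For neurons 6 of 10 markers did, and the 10 held 0.00117% to 0.00292%.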

How the data were processed

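RNA-seq was done on FACS-sorted microglia, 4 saline and 4 ethanol libraries. The table the authors deposited holds a signal for each gene, named as DESeq2-normalized counts. The submitters' processing notes name GRCm39 and the tools STAR 2.7.9a, featureCounts 2.0.1, Salmon 1.5.2, bcl2fastq 2.19.1, R 4.2.2 and DESeq2. What each did, and the annotation, is not given in the sources used here. Dividing each library by its smallest value above 0 gave whole numbers within 1e-06 for 100% of values above 0, so reads were recovered. Strand was not assumed.

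The main test was limma 3.58.1 on log2(value + 1) (R 4.3.3, variance trend, two-sided, Benjamini-Hochberg over 14428 genes with a mean of at least 10, threshold 0.05). Folds are on that scale, which understates changes of low genes. Alternatives were pseudocounts of 0.5 and 5, no filter, a mean of at least 50, quantile normalization, edgeR 4.0.16, DESeq2 1.42.0 and voom on recovered reads, the sample number as a block, the library name number (163, 164 or 165) as a factor, the sample sets as a term, and leaving out each library. Tests were tried on simulated counts. Transcript lengths and sequences came from GENCODE M21 on GRCm38, which is not the build of the table, and symbols matched for 10 of 10 genes. No genome coordinates are given.

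The 10 genes, the lists and the tests were chosen with earlier results of these data known. Besides the 10, a rule named 11 pathway genes whatever their result, and the 2 pathway genes in each direction with the smallest unadjusted p and a mean of at least 50, 1 of which is not reported here.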

Additional observations from a re-analysis of the deposited data

Results flagged for a closer look

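Hmox1 in ethanol 1, at 444 normalized counts, lay far from the other 3 ethanol libraries, which spanned 399 to 406. The gap to the nearest was 0.847 of the range of the group, above Dixon's 95% critical value for 4 samples. It was 1 of 20 groups examined for the 10 genes, and chance alone gives about 1 in 20. The value lies inside the range of the saline libraries.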

How the results depend on the processing

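Over 19 alternatives, limma and the count models called 0 of all tested genes, 0 of the 10 genes and 0 of the other pathway genes in each. For the 10 genes the smallest adjusted p over the alternatives was 0.917. No setting moved the median log2 fold change of all genes by 0.1. Of the 11 alternatives that keep all libraries, only Ftl1 changed direction among the 10, with log2 fold changes of 0.0042 after quantile normalization, 0.0036 in edgeR, 0.0025 in voom and 0.0046 with the library name number as a factor. Trf had 0.046, 0.00053 and 0.0033 in the first 3 of these fits. With the library name number as a factor, Hmox2 had 0.013, Blvrb 0.019 and Bach1 -0.052. The cause was not tested.

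Leaving out 1 library at a time, Slc11a1, Tfrc and Ireb2 kept their direction. The log2 fold change spanned -0.062 to 0.081 for Fth1, -0.045 to 0.040 for Ftl1, -0.12 to 0.033 for Hmox1, -0.049 to 0.036 for Slc40a1, -0.11 to 0.026 for Slc11a2, -0.074 to 0.11 for Aco1 and -0.028 to 0.11 for Ncoa4. Of the pathway genes it spanned -0.043 to 0.021 for Trf, -0.48 to 0.11 for Cp, -0.036 to 0.19 for Slc48a1, -0.049 to 0.042 for Hmox2, -0.11 to 0.051 for Blvrb, -0.074 to 0.079 for Bach1, -0.026 to 0.15 for Fbxl5 and -0.040 to 0.0025 for Pcbp1.

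With the sample number as a block, 0 of the 10 genes passed. Deviations from the group means correlated at 0.01 to 0.08 between same-numbered libraries over tested genes, below 0.1 in each of the 4 pairs. Only 2 of 8 libraries correlated best with their own number, so these values do not show a pairing by number. Saline and ethanol libraries of the same sample set all correlated positively, at 0.01 to 0.14. Those of different sets all correlated negatively, at -0.10 to -0.02. Deviations within a group cancel out, so positive values in some pairs require negative values in others. The sets were also recognized from the same values, so these signs are no independent evidence for them. Same-numbered libraries are in the same set by the way the sets are defined. With the block, 645 of 14428 genes had an unadjusted p under 0.05, against 524 without it. Depth limited Tfrc most among the 10, at 167 reads in its lowest library.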

Other observations

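Lcn2, which encodes the siderophore-binding lipocalin 2, and Hp, the hemoglobin-binding haptoglobin, stand in the pathway lists and also in the neutrophil and monocyte marker lists, and they are described here after their values were seen. Lcn2 had normalized counts of 470, 84.0, 209 and 30.0 in saline 1 to 4 and 43.5, 145, 136 and 314 in ethanol 1 to 4. Hp had 221, 29.0, 254 and 37.2 in saline and 30.4, 33.1, 107 and 217 in ethanol. Saline 1, saline 3 and ethanol 4 were the 3 highest for both. The summed neutrophil markers, which include Lcn2, held 0.0962%, 0.0504% and 0.0696% of normalized counts in those libraries, against at most 0.0372% in the other 5. The part of neutrophils in the 2 values was not tested.

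Cd163, the receptor for haptoglobin-hemoglobin complexes and a marker of border macrophages, had normalized counts of 174, 297, 42.8 and 18.2 in saline 1 to 4 and 77.1, 145, 25.1 and 73.1 in ethanol 1 to 4. All 4 libraries numbered 1 or 2 lay above all 4 numbered 3 or 4. Cd163 is described here after its values were seen, and these sets did not overlap for 8.03% of all tested genes. The summed border macrophage markers, which include Cd163, did overlap between the sets, with 0.00551% in ethanol 1 and 0.00573% in ethanol 3. Mrc1, another marker of those cells, had 518, 762, 265 and 232 in saline and 318, 434, 273 and 462 in ethanol.

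Hamp encodes hepcidin, the hormone that triggers degradation of ferroportin. It had 19.6 normalized counts in ethanol 1 and at most 3.86 in any other library.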
